A study of Mus musculus with 18 samples.

Results

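The 29 genes described here make cholesterol and fatty acids or control that synthesis. They were chosen by symbol from the 24318 genes of a fragment count table. Their values did not enter the rule, but the list was chosen with earlier results of these data known. They comprised 16 enzymes of cholesterol synthesis, 5 genes for regulators and sterol transport, and 8 enzymes of fatty acid synthesis and desaturation. The cells were immortalised mouse embryonic fibroblasts of genotype MafF-/-::MafG-/-::MafK-/-, so both lines lacked all 3 small Maf proteins, the partners with which CNC transcription factors such as Nrf1 bind DNA. Mock cells carried only that genotype, and T-N1G cells (genotype label T-NG1) also expressed T-N1G, a tethered Nrf1-MafG heterodimer. Each line received vehicle, 0.3 µM or 1.0 µM MG132, a proteasome inhibitor, for 12 h in medium with 10% fetal bovine serum, which itself supplies lipids, and each of the 6 groups had 3 libraries of polyadenylated RNA. The sources used here do not give the promoter that drives T-N1G, the number of clones behind each line or whether each of the 3 libraries had a culture of its own. A p-value here therefore speaks of the spread among libraries, and that spread may be technical.

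Cholesterol is built from acetyl-CoA through mevalonate, isoprenoid diphosphates, squalene and lanosterol, and long-chain fatty acids are built from the same acetyl-CoA through malonyl-CoA. Transcription of both pathways is driven by the SREBP factors, which are made as precursors in the membrane of the endoplasmic reticulum, carried to the Golgi by SCAP when sterols are low and cut there by the proteases encoded by Mbtps1 and Mbtps2. INSIG proteins hold SCAP back when sterols are plentiful. Nuclear SREBPs and INSIG proteins are themselves turned over by the proteasome, and no protein was measured in these libraries.

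Promoter windows of 300 bases (250 before to 50 after a RefSeq transcript start, build GRCm38.p6) were matched by symbol to 22 of the 29 genes, with 29 windows in all. The deposited tables use build mm9, so positions of the 2 are not mixed. Mvk, Mvd and Idi1 fell in every MG132 comparison, as some other members with a window did against vehicle, Cyp51 fell in none, and Pmvk fell in mock cells only. The 250 bases before the start are printed for these 5 genes as examples. Each runs 5′ to 3′ along the gene, and the capitals mark the NF-Y motif CCAAT on either strand and, in Mvk, the letters TGACNNNGC of the antioxidant response element that CNC and small Maf dimers bind. The windows lie at chr5:114444019-114444268 on the plus strand (Mvk), chr8:122443423-122443672 on the minus strand (Mvd), chr13:8885356-8885605 on the plus strand (Idi1), chr5:4104698-4104947 on the minus strand (Cyp51) and chr3:89454291-89454540 on the plus strand (Pmvk, the first of 2 windows).
Mvk: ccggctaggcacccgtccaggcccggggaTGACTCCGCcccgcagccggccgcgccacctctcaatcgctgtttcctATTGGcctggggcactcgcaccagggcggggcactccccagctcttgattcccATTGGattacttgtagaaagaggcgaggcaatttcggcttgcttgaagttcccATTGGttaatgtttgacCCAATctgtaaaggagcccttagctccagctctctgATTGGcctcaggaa
Mvd: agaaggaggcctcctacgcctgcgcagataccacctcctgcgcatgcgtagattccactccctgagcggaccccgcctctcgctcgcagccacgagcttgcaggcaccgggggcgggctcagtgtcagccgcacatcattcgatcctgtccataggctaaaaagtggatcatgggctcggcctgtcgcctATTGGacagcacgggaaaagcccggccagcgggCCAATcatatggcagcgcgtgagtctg
Idi1: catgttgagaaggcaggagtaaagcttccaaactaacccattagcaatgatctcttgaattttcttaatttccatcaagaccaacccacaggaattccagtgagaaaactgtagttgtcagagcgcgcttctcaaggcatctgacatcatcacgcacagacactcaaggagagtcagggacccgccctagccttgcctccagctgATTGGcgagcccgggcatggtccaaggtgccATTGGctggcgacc
Cyp51: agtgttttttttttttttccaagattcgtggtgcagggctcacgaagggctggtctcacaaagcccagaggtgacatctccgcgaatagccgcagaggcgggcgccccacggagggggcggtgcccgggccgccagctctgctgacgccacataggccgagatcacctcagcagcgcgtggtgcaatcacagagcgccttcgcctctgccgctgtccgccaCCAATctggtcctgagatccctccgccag
Pmvk: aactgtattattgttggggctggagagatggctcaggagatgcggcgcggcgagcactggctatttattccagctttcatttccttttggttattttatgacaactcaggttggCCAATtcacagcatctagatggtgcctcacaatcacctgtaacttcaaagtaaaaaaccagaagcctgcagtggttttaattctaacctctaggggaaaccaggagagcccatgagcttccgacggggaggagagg

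CCAAT was found on either strand in a window of 18 of the 22 genes (81.8%), against 41.1% of 27025 genes with such windows. The Sp1 motif GGGCGG, not capitalised above, was likewise found in 18 of 22 (81.8%), against 38.2% of genes. These shares of genes, here and below, cover all genes with a window, whether or not they were expressed in these cells. Among the 5 printed genes, Mvk held 5 CCAAT matches, Mvd and Idi1 held 2 each, and Cyp51 and the first window of Pmvk held 1 each. These 5 were picked by their changes, and a link between matches and changes was not tested. Acat2, Acaca, Elovl6 and Fads2 had a window but no CCAAT, and all but Acaca fell at 1.0 µM in both lines. Members not printed also fell in every comparison with vehicle, both with CCAAT (Lss, Tm7sf2, Nsdhl, Hsd17b7, Ebp, Dhcr7 and Insig2) and without it (Acat2 and Elovl6). TGACNNNGC was found in 4 of 22 genes (18.2%, against 14% of genes), namely Mvk, Pmvk in its second window, Hsd17b7 and Dhcr7. The sterol response element TCACNCCAC was found in 1 of 22 (Hmgcs1, against 1.44% of genes), and its longer form, SRE-1, in none (against 0.0999% of genes). These are matches of letters in short windows and say nothing of binding.

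Library totals ran from 18164379 to 21293709 fragments. Levels are CPM (counts scaled to library size) after TMM scaling, given as mean ± SD with n = 3, and 28 of the 29 genes passed the expression filter. The exception was Hmgcs1, the HMG-CoA synthase of the mevalonate pathway, which is listed at 0 fragments in all 18 libraries and whose deposited locus lies on the unplaced sequence 13_random of mm9. The fibroblast markers Col1a1, Fn1 and Vim led a list of 8 whose summed level was 8370 to 13160 CPM per library. Member by member these markers moved with MG132 too: at 1.0 µM 5 of 8 fell and 2 rose in mock cells (median log2 change -0.93), and 7 of 8 fell and 1 rose in T-N1G cells (-1.47). All 6 adipocyte markers together reached 0.0528 to 1.128 CPM per library, with Plin1 and Lep at 0 in 17 and 16 of 18 libraries. Endothelial markers summed to 3.406 to 6.064 CPM under vehicle and 24.52 to 86.75 CPM at 1.0 µM, and epithelial markers to 15.6 to 20 and 18.1 to 66.91 CPM. Their part in the results was not tested.

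Within a group, the 28 genes deviated together from library to library. In T-N1G cells under vehicle, library 3 was the highest of the 3 for 28 of 28 genes, with a median deviation from the group mean of 0.15 on the log2 scale. In T-N1G cells at 1.0 µM, library 2 was the highest for 24 of 28, with a median deviation of 0.26, with library 3 the lowest for 11. Library 1 was the lowest for most genes in all 6 groups: in mock cells for 25 of 28 under vehicle, 25 at 0.3 µM and 24 at 1.0 µM, with median deviations of -0.10, -0.13 and -0.22, and in T-N1G cells for 18, 20 and 16, with -0.08, -0.11 and -0.19. Over all 13258 genes tested, the median deviation of these libraries lay between -0.007 and 0.004, and each was the extreme one for 31.5% to 36% of genes. The 28 genes are therefore not independent of each other within a library. The spread of all genes was also wider at 1.0 µM, where the mock and T-N1G groups had a median SD of log2 CPM of 0.1415 and 0.1751, against 0.0471 and 0.061 under vehicle.

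**Figure D1:**
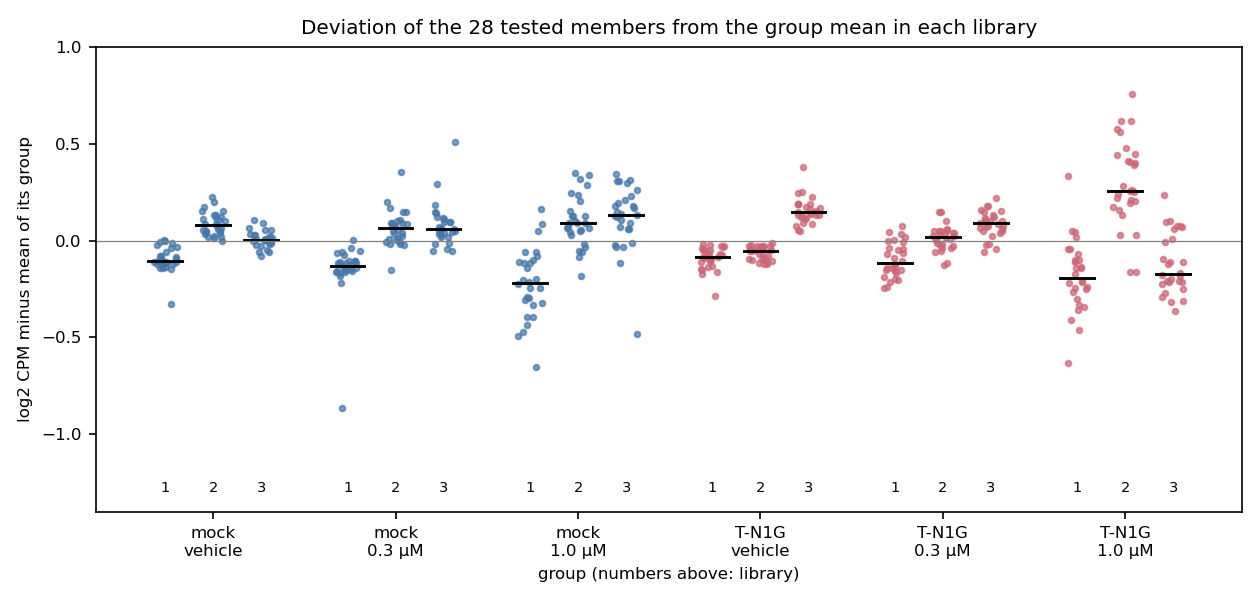
Each point is 1 of the 28 tested genes, plotted as its log2 CPM in a library minus the mean of the 3 libraries of its group, with black bars at the library's median. The points of T-N1G library 2 at 1.0 µM lie around 0.26, those of T-N1G library 3 under vehicle around 0.15, and those of mock library 1 at 1.0 µM around -0.22.

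MG132 lowered most of these transcripts in both lines, and more of them at the higher dose. At 0.3 µM in mock cells 15 of 28 fell and 2 rose, where 28.1% of all genes tested fell and 25% rose (edgeR quasi-likelihood F test, adjusted p under 0.05, as for every call and adjusted p here). At 1.0 µM 23 of 28 fell and none rose, against 37.4% and 32.4% of all genes. In T-N1G cells 22 fell and 1 rose at 0.3 µM (30.3% and 29.1% of all genes), and 24 fell and none rose at 1.0 µM (38.9% and 37.5%). The median log2 change of the 28 was -0.34 and -0.94 in mock cells at 0.3 and 1.0 µM and -0.67 and -1.21 in T-N1G cells, while the median over all genes tested lay between -0.04 and -0.01 in the 4 comparisons. In RNA from whole cultures, fewer cells of a type and less RNA per cell cannot be told apart.

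The mock and T-N1G comparisons share no library. At 1.0 µM 21 of 28 genes (75%) fell in both lines, against 27.8% of all genes tested, and at 0.3 µM 14 of 28 (50%) did, against 19.4%. Each library at 1.0 µM lay below each vehicle library for 25 of 28 genes in mock cells (39.2% of all genes) and 23 of 28 in T-N1G cells (38.9%). At 0.3 µM this held for 18 of 28 genes in mock cells (37.7% of all genes) and 24 of 28 in T-N1G cells (36.3%). The genes whose libraries overlapped those of vehicle in both lines at 1.0 µM were Cyp51, Srebf1 and Insig1, joined in T-N1G cells by Pmvk and Acaca.

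**Figure D2:**
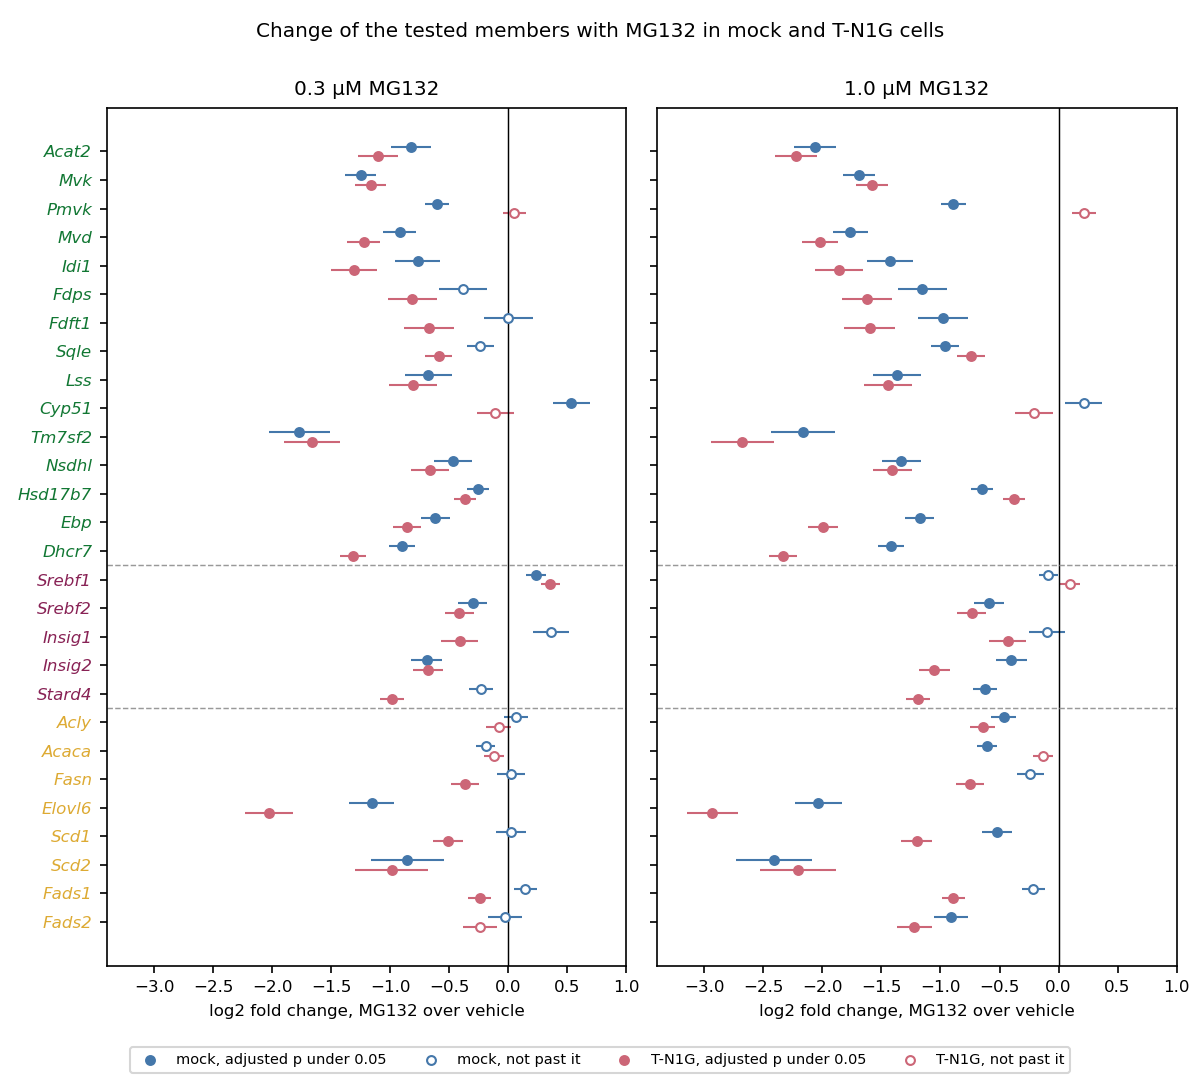
Log2 fold change of MG132 over vehicle (horizontal axis, bars are standard errors) for each of the 28 tested genes, in pathway order, with sterol enzymes in green, regulators and transport in purple and fatty acid enzymes in yellow. Filled points have an adjusted p under 0.05, and at 1.0 µM they lie left of 0 for 23 genes in mock and 24 in T-N1G cells.

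Most sterol enzymes fell in both lines at both doses. Of all genes tested, 28.1% and 37.4% fell at 0.3 and 1.0 µM in mock cells, and 30.3% and 38.9% in T-N1G cells. Of 15 sterol enzymes tested, 11 fell and 1 rose in mock cells at 0.3 µM (median log2 change -0.62) and 14 fell at 1.0 µM (-1.33). In T-N1G cells 13 of these enzymes fell at 0.3 µM (-0.81) and 13 at 1.0 µM (-1.60). Their summed level went from 1488 ± 109 CPM to 1232 ± 112 and 820.1 ± 139 CPM in mock cells and from 1631 ± 174 to 1017 ± 83.6 and 763.8 ± 186 CPM in T-N1G cells. Several enzymes of the first steps, which lead from acetyl-CoA to the isoprenoid units, fell deeply, but Pmvk among them did not fall in T-N1G cells. The deepest fall of the sterol enzymes at 1.0 µM was that of Tm7sf2, which acts later, in both lines. Acat2, the cytosolic thiolase that joins acetyl-CoA units, stood at 91.4, 105 and 100.1 CPM in mock cells under vehicle, 51.4, 62.4 and 53.7 at 0.3 µM, and 16.5, 29.2 and 24.9 at 1.0 µM. The T-N1G libraries read 97.8, 102 and 114 CPM, then 43.8, 47.7 and 55.2, then 19.9, 28.8 and 18.5. The 3 treatments did not overlap in either line, and Acat2 was 4.19-fold lower at 1.0 µM in mock cells (log2 -2.07 ± 0.18 SE, adjusted p = 2.54e-08) and 4.68-fold lower in T-N1G cells (-2.23 ± 0.18, adjusted p = 5.45e-09).

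Mvk, mevalonate kinase, and Mvd, mevalonate diphosphate decarboxylase, fell in parallel. Mvk changed by -1.25 ± 0.13 at 0.3 µM and -1.69 ± 0.14 at 1.0 µM in mock cells, and by -1.16 ± 0.13 and -1.58 ± 0.13 in T-N1G cells (log2 ± SE). Mvd changed by -0.92 ± 0.14 and -1.76 ± 0.15 in mock cells and by -1.22 ± 0.14 and -2.02 ± 0.15 in T-N1G cells. Idi1, the isomerase that interconverts the 2 isoprenoid units, fell from 218 ± 13.5 to 81.1 ± 15.4 CPM at 1.0 µM in mock cells and from 231 ± 20.1 to 63.7 ± 23.8 CPM in T-N1G cells, where library 2 read 91.1 CPM beside 50.8 and 49.2. Fdps, farnesyl diphosphate synthase, and Fdft1, squalene synthase, showed no call at 0.3 µM in mock cells (log2 -0.38 ± 0.20 and 0.00 ± 0.21) and fell in the other 3 comparisons, of which the Fdft1 call at 0.3 µM in T-N1G cells was lost without T-N1G vehicle library 3. In T-N1G cells at 1.0 µM Fdps stood at 48.4, 91.7 and 48 CPM and Fdft1 at 23.5, 47.9 and 27, so the second library was again the high one, yet below each vehicle library (170 to 228 CPM and 91.8 to 112 CPM).

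The later steps from squalene to cholesterol fell as well, with 1 exception. Sqle, squalene epoxidase, changed by -0.24 ± 0.12 (adjusted p = 0.0946) and -0.96 ± 0.12 in mock cells and by -0.59 ± 0.12 and -0.74 ± 0.12 in T-N1G cells. Lss, lanosterol synthase, fell by 1.37 ± 0.20 on the log2 scale at 1.0 µM in mock cells and by 1.44 ± 0.21 in T-N1G cells, and Nsdhl and Hsd17b7, which act in removing methyl groups from lanosterol, fell in all 4 comparisons, although at 0.3 µM in mock cells the call of Hsd17b7 was lost in 10 of 24 alternative analyses and that of Nsdhl in 4. Nsdhl changed by -1.33 ± 0.17 and -1.41 ± 0.17 at 1.0 µM, and Hsd17b7 by -0.65 ± 0.09 and -0.37 ± 0.09. Ebp, a sterol isomerase, went from 43.3 ± 0.37 to 28.2 ± 1.61 and 19.1 ± 3.25 CPM in mock cells and from 46.9 ± 1.43 to 25.9 ± 0.90 and 11.8 ± 2.49 CPM in T-N1G cells.

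Dhcr7, a reductase of the final step to cholesterol, stood at 43.7, 52.2 and 47.6 CPM in mock cells under vehicle, 23.1, 25.5 and 28.3 at 0.3 µM, and 15.4, 18.6 and 19.4 at 1.0 µM. Its T-N1G values were 52, 49.3 and 60.4 CPM, then 22.2, 19.9 and 22.7, then 9.702, 10.88 and 11.43. The treatments did not overlap in either line, and at 1.0 µM every T-N1G library lay below every mock library. Dhcr7 changed by -1.42 ± 0.11 at 1.0 µM in mock cells (adjusted p = 3.92e-09) and by -2.34 ± 0.12 in T-N1G cells (adjusted p = 4.86e-12).

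Tm7sf2, a sterol reductase, had the lowest counts, with 11 to 151 fragments per library. Its level was 2.9, 4.26 and 3.93 CPM in mock cells under vehicle, 0.546, 1.27 and 1.41 at 0.3 µM, and 0.902, 1.0 and 0.576 at 1.0 µM. With T-N1G it read 5.56, 5.89 and 6.95 CPM, then 1.93, 1.77 and 2.1, then 0.983, 1.07 and 0.813. The vehicle libraries were the highest in both lines without overlap, and the changes at 1.0 µM were -2.16 ± 0.27 (adjusted p = 1.43e-06) and -2.68 ± 0.26 (adjusted p = 3.85e-08), with 11 to 44 fragments behind each treated value.

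Cyp51 and Pmvk did not follow the other sterol enzymes. Cyp51, lanosterol demethylase, stood at 256, 302 and 272 CPM in mock cells under vehicle, 355, 391 and 452 at 0.3 µM, and 267, 313 and 380 at 1.0 µM. In T-N1G cells it stood at 281, 278 and 331 CPM, then 239, 303 and 283, then 217, 332 and 221. All 3 mock libraries at 0.3 µM lay above all mock vehicle libraries, and the other treated groups overlapped vehicle. Cyp51 rose at 0.3 µM in mock cells (log2 0.53 ± 0.16, adjusted p = 0.00912), a call lost without mock library 3 at 0.3 µM, and passed the test in no other MG132 comparison (0.21, -0.11 and -0.21).

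Pmvk, phosphomevalonate kinase, stood at 29.1, 30 and 29.5 CPM in mock cells under vehicle, 18, 19.1 and 21.1 at 0.3 µM, and 13.8, 16.8 and 17.1 at 1.0 µM. Its deposited locus in mm9 is chr3:89263040-89272931. The T-N1G libraries read 31.9, 33.4 and 36.9 CPM, then 37.2, 33.9 and 34.8, then 36.4, 45.9 and 36.5. The mock groups stepped down without overlap, while the T-N1G groups overlapped each other, with library 2 at 1.0 µM the highest. Pmvk changed by -0.61 ± 0.10 (adjusted p = 8.7e-05) and -0.89 ± 0.11 (adjusted p = 6.51e-07) in mock cells and by 0.05 ± 0.10 and 0.22 ± 0.10 in T-N1G cells (adjusted p = 0.678 and 0.0574). The last value passed the threshold, as a rise, in 7 of 24 alternative analyses.

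**Figure D3:**
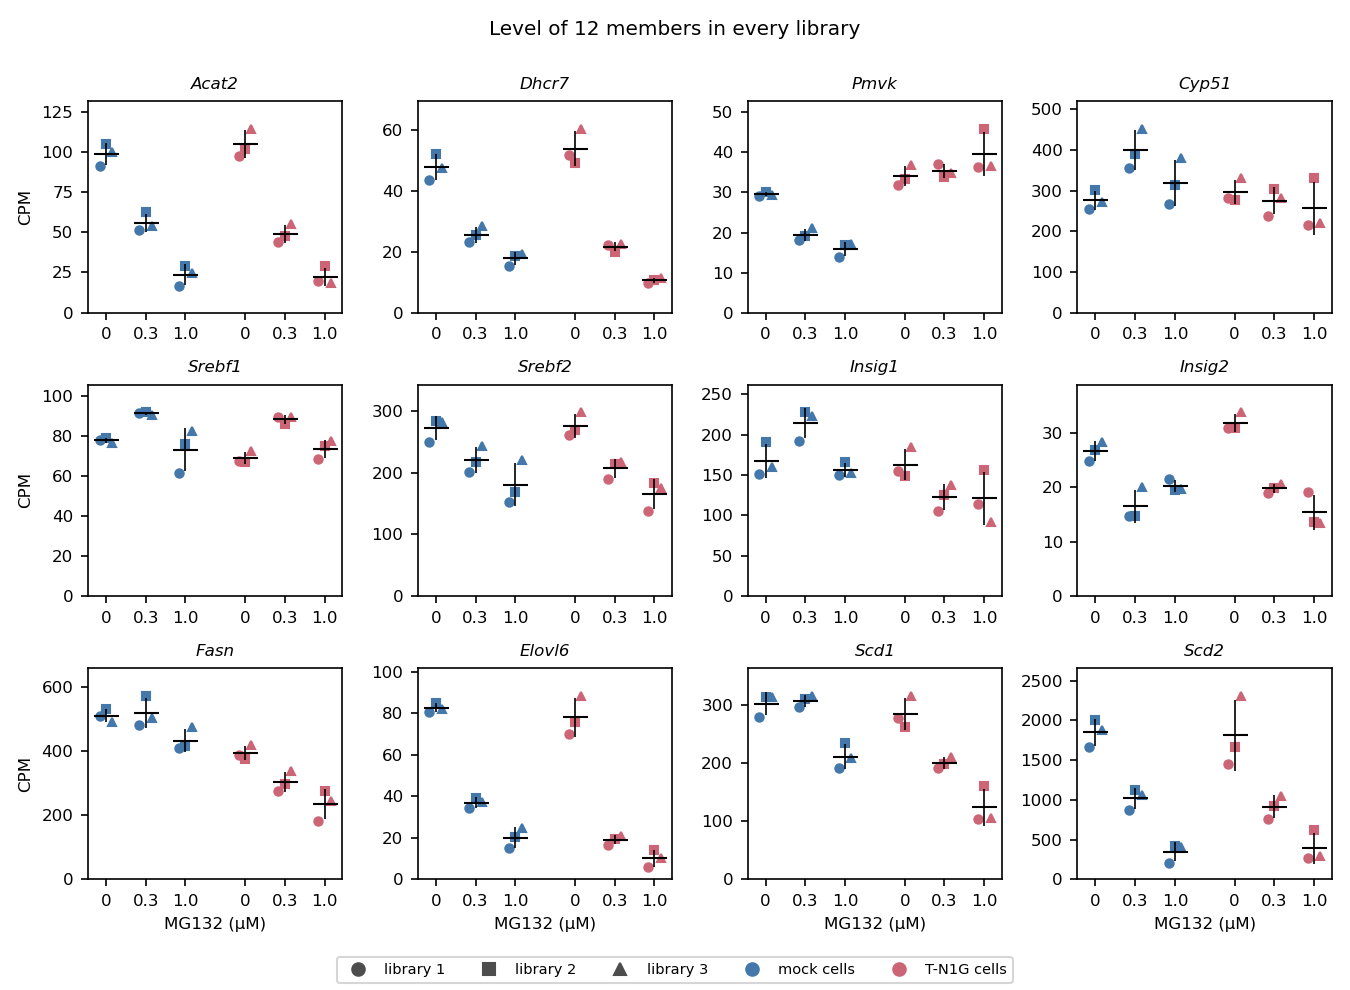
CPM of 12 genes in each of the 18 libraries (vertical axis from 0), with circles, squares and triangles for libraries 1, 2 and 3, and black marks for the mean ± SD of each group of 3. Acat2, Dhcr7 and Scd2 step down with dose in both lines, Pmvk steps down in mock cells only, and Cyp51 and Srebf1 at 1.0 µM overlap their vehicle libraries.

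Among the regulators, Srebf2 and Insig2 fell and Srebf1 rose at the lower dose, with values per line below. Of the 5 genes for regulators and transport, mock cells showed 2 lower and 1 higher at 0.3 µM and 3 lower at 1.0 µM, and in T-N1G cells 4 fell and 1 rose at 0.3 µM and 4 fell at 1.0 µM, with median log2 changes of -0.23, -0.40, -0.42 and -0.74. The counts above for all 28 genes give the shares of all genes for these comparisons. Srebf2, which encodes the SREBP that acts mainly on cholesterol genes, stood at 250, 284 and 283 CPM in mock cells under vehicle, 202, 218 and 244 at 0.3 µM, and 153, 169 and 221 at 1.0 µM. Its T-N1G values were 261, 270 and 299 CPM, then 190.1, 214 and 218, then 139, 183 and 176. Every treated library lay below every vehicle library of its line, with changes at 1.0 µM of -0.59 ± 0.12 (adjusted p = 0.000383) and -0.74 ± 0.12 (adjusted p = 3.16e-05). The fall at 0.3 µM in mock cells (-0.30 ± 0.12, adjusted p = 0.0484) was lost in 17 of 24 alternatives.

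Srebf1, which encodes the SREBP that acts mainly on fatty acid genes, stood at 77.9, 78.7 and 76.3 CPM in mock cells under vehicle, 91.5, 91.7 and 90.5 at 0.3 µM, and 61.2, 75.8 and 82.2 at 1.0 µM. With T-N1G it read 67.4, 66.6 and 72.5 CPM, then 89.3, 85.8 and 89.5, then 68.4, 75 and 77.2. The libraries at 0.3 µM were above vehicle in both lines without overlap, and those at 1.0 µM overlapped vehicle. Srebf1 rose at 0.3 µM in mock cells (0.23 ± 0.08, adjusted p = 0.025) and in T-N1G cells (0.36 ± 0.08, adjusted p = 0.00124), and its values at 1.0 µM were -0.09 ± 0.08 and 0.10 ± 0.08 (adjusted p = 0.368 and 0.311). The mock call was lost without any 1 of the 3 mock libraries at 0.3 µM and with scaling by library size alone.

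Insig1 is the INSIG gene that SREBPs themselves switch on. It stood at 151, 191 and 159.5 CPM in mock cells under vehicle, 193, 228 and 223 at 0.3 µM, and 150.1, 166 and 153 at 1.0 µM. In T-N1G cells it stood at 155, 149 and 185 CPM, then 105, 125 and 138, then 115, 157 and 91.9. At 0.3 µM the mock libraries were all above, and the T-N1G libraries all below, the vehicle libraries of their line. Insig1 changed by 0.36 ± 0.15 (adjusted p = 0.0577) and -0.10 ± 0.15 in mock cells, neither past the threshold, and fell by 0.41 ± 0.15 and 0.43 ± 0.15 on the log2 scale in T-N1G cells (adjusted p = 0.0286 and 0.0175). The T-N1G call at 1.0 µM was lost without vehicle library 3 and without library 1 or 3 at 1.0 µM, and when only the 2 groups were fitted. At 0.3 µM it was lost without vehicle library 1 or 3, without library 1 or 2 at 0.3 µM, and with no expression filter.

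Insig2, the second INSIG gene, stood at 24.7, 26.8 and 28.3 CPM in mock cells under vehicle, 14.7, 14.7 and 19.9 at 0.3 µM, and 21.4, 19.4 and 19.7 at 1.0 µM. The T-N1G libraries read 30.9, 30.8 and 33.7 CPM, then 18.9, 19.9 and 20.6, then 19.1, 13.5 and 13.5. All treated libraries were below vehicle, and the lowest group was 0.3 µM in mock cells and 1.0 µM in T-N1G cells. The changes were -0.69 ± 0.13 and -0.40 ± 0.13 in mock cells and -0.68 ± 0.13 and -1.05 ± 0.13 in T-N1G cells, all past the threshold, of which the mock value at 1.0 µM (adjusted p = 0.00981) was lost without vehicle library 2 or 3 or without library 2 at 1.0 µM.

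Stard4, a carrier of cholesterol between membranes, stood at 63.7, 75.5 and 71.9 CPM in mock cells under vehicle, 54, 64 and 61.7 at 0.3 µM, and 42.2, 47.4 and 47.5 at 1.0 µM. Its T-N1G values were 61, 59 and 70.1 CPM, then 30.1, 32.8 and 33.1, then 25.7, 31.9 and 25.6. The mock libraries at 0.3 µM overlapped vehicle, and the T-N1G libraries at that dose lay well below it. Stard4 changed by -0.23 ± 0.10 (adjusted p = 0.0553) and -0.62 ± 0.10 in mock cells and by -0.99 ± 0.10 and -1.19 ± 0.10 in T-N1G cells (adjusted p = 1.7e-07 and 6.05e-09).

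In the fatty acid branch most genes fell at 1.0 µM. At 0.3 µM in mock cells the share that fell was near that of all genes tested. At 0.3 µM in mock cells 2 of 8 fell, Elovl6 and Scd2, with a median log2 change over the 8 of -0.003, beside -0.54 over the 20 tested genes of the sterol branch (enzymes, regulators and transport). At 1.0 µM in mock cells 6 of 8 fell (median -0.56, sterol branch 17 of 20 and -1.07). In T-N1G cells 5 of 8 fell at 0.3 µM (median -0.31, sterol branch 17 of 20 and -0.75) and 7 of 8 at 1.0 µM (median -1.05, sterol branch 17 of 20 and -1.43). Of all genes tested, 28.1% and 37.4% fell at 0.3 and 1.0 µM in mock cells, and 30.3% and 38.9% in T-N1G cells. The difference between the branches was not tested. The summed level of the 8 went from 3639 ± 225 to 2793 ± 226 and 1653 ± 182 CPM in mock cells, and without Scd2 from 1791 ± 54 to 1773 ± 93.9 and 1305 ± 63.6 CPM. In T-N1G cells the sum without Scd2 went from 1606 ± 119 to 1285 ± 88.6 and 902.4 ± 135 CPM.

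Acly, the ATP citrate lyase that supplies cytosolic acetyl-CoA to both pathways, showed no call at 0.3 µM (0.07 ± 0.10 in mock, -0.08 ± 0.10 in T-N1G cells) and fell at 1.0 µM (-0.46 ± 0.10 and -0.64 ± 0.10). Acaca, the carboxylase that makes malonyl-CoA, fell at 1.0 µM in mock cells (-0.60 ± 0.08, adjusted p = 4.57e-06) and had a value of -0.13 ± 0.08 in T-N1G cells (adjusted p = 0.153). Fasn, fatty acid synthase, stood at 509, 530 and 489 CPM in mock cells under vehicle, 480.3, 572 and 501 at 0.3 µM, and 408, 414 and 474 at 1.0 µM. With T-N1G it read 386, 376 and 418 CPM, then 276, 298 and 338, then 183, 276 and 243. Every T-N1G library lay below every mock library of the same treatment, and the T-N1G libraries with MG132 lay below those without. Fasn changed by 0.02 ± 0.12 and -0.24 ± 0.12 in mock cells (adjusted p = 0.887 and 0.0811) and fell by 0.37 ± 0.12 and 0.75 ± 0.12 on the log2 scale in T-N1G cells (adjusted p = 0.012 and 1.63e-05). The T-N1G call at 0.3 µM was lost without vehicle library 3 or without library 1 at 0.3 µM.

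Elovl6, which lengthens palmitate, had the deepest fall of the 28 genes in T-N1G cells at both doses (deposited locus chr3:129235304-129341411 in mm9). It stood at 80.7, 84.9 and 82.2 CPM in mock cells under vehicle, 34.3, 39.3 and 37.5 at 0.3 µM, and 15, 20.4 and 25 at 1.0 µM. In T-N1G cells it stood at 69.8, 75.9 and 88.5 CPM, then 16.7, 19.6 and 21.1, then 6.2, 14.2 and 10.1. The groups of each line did not overlap, and each T-N1G group with MG132 lay below the mock group of its dose. Elovl6 was 2.23-fold and 4.09-fold lower than vehicle in mock cells (log2 -1.16 ± 0.19 and -2.03 ± 0.20) and 4.07-fold and 7.63-fold lower in T-N1G cells (-2.03 ± 0.20 and -2.93 ± 0.21, adjusted p = 2.44e-07 and 2.19e-09).

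The desaturases that place the first double bond, Scd1 and Scd2, lie near each other on chromosome 19 (44368166 to 44381352 for Scd2 and 44468940 to 44482199 for Scd1 in mm9). Scd2 stood at 1662, 2004 and 1877 CPM in mock cells under vehicle, 871, 1124 and 1064 at 0.3 µM, and 211, 419 and 413 at 1.0 µM. The T-N1G libraries read 1457, 1666 and 2309 CPM, then 766, 921 and 1053, then 265, 617 and 298. The groups did not overlap, but library 1 of the mock cells and library 2 of the T-N1G cells stood apart at 1.0 µM, on the low and on the high side. Scd2 was 5.31-fold lower at 1.0 µM in mock cells (log2 -2.41 ± 0.32, adjusted p = 1.15e-05) and 4.61-fold lower in T-N1G cells (-2.20 ± 0.32, adjusted p = 1.95e-05). Its falls at 0.3 µM were -0.86 ± 0.31 and -0.99 ± 0.31 (adjusted p = 0.0306 and 0.0133). The mock call at that dose was lost without any 1 of the 6 libraries compared and with no expression filter, and the T-N1G call without vehicle library 3 or without library 1 at 0.3 µM.

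Scd1 stood at 303 ± 19.4, 308 ± 10.2 and 212 ± 21.6 CPM in mock cells and at 286 ± 27.3, 201 ± 10 and 124 ± 32.5 CPM in T-N1G cells, from vehicle to 1.0 µM. It had a value of 0.02 ± 0.13 at 0.3 µM in mock cells and fell in the other 3 comparisons (-0.52 ± 0.13 at 1.0 µM in mock, -0.51 ± 0.13 and -1.20 ± 0.13 in T-N1G cells). Fads1 and Fads2, the desaturases of polyunsaturated fatty acids, lie near each other on chromosome 19. Fads2 stood at 125, 137 and 135 CPM in mock cells under vehicle, 124, 130 and 135 at 0.3 µM, and 60.3, 82.1 and 68.7 at 1.0 µM. Its T-N1G values were 135, 136 and 159 CPM, then 112, 122 and 129, then 50.6, 81.6 and 51.8. The groups at 1.0 µM lay below vehicle without overlap and those at 0.3 µM in mock cells overlapped it, with falls at 1.0 µM that passed the test (-0.91 ± 0.14 and -1.22 ± 0.15, adjusted p = 2.48e-05 and 6.12e-07). Fads1 had no call in mock cells (0.14 ± 0.10 and -0.21 ± 0.10) and fell in T-N1G cells (-0.24 ± 0.10 and -0.89 ± 0.10), where the call at 0.3 µM (adjusted p = 0.0352) was lost in 12 of 24 alternatives.

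From 0.3 to 1.0 µM 23 of 28 genes fell and none rose in mock cells (27.8% and 21.8% of all genes tested), and 21 fell and none rose in T-N1G cells (30.8% and 29.3%). The mock count was 15 without mock library 1 at 1.0 µM. These comparisons share the libraries at 0.3 and 1.0 µM with those against vehicle. In the order of group means, with no test, the mean was lower at each step for 14 of 16 sterol enzymes (Hmgcs1 at 0 included) in T-N1G cells and 13 of 16 in mock cells. The same order held for the 8 fatty acid enzymes in T-N1G cells and for 4 of 8 in mock cells, where the other 4 had their highest mean at 0.3 µM. Of all genes tested, 31.6% had this order in T-N1G and 30.9% in mock cells, and for Acaca in T-N1G cells no step passed the test. Cyp51 is among the 14 sterol enzymes in T-N1G cells, although it had no call against vehicle there and its libraries overlapped vehicle at both doses.

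Between the lines under vehicle the members differed little. Of 28, 1 was lower and 2 were higher in T-N1G cells, where 7.72% and 8.43% of all genes tested were lower and higher. Tm7sf2 (log2 0.73 ± 0.22, adjusted p = 0.0309) and Hsd17b7 (0.30 ± 0.09, adjusted p = 0.0313) were higher, and Fasn was lower (-0.37 ± 0.12, adjusted p = 0.0386). Each of these 3 calls was lost without any 1 of several libraries: Fasn in 9 of 24 alternatives, Hsd17b7 in 6 and Tm7sf2 in 5. Every T-N1G vehicle library lay below every mock one for 4 of 28 members (Fasn, Acly, Srebf1 and Acaca) and above for 5 (Tm7sf2, Hsd17b7, Pmvk, Ebp and Insig2), against 24.6% of all genes each way. In a fit of the 6 vehicle libraries alone 4 members were lower and 4 higher, against 20.1% and 19.5% of all genes in that fit. The higher ones were Tm7sf2 (0.73 ± 0.16), Hsd17b7 (0.30 ± 0.06), Insig2 (0.26 ± 0.07) and Pmvk (0.20 ± 0.06). The lower ones were Fasn (-0.37 ± 0.05), Acly (-0.24 ± 0.05), Srebf1 (-0.17 ± 0.05) and Acaca (-0.17 ± 0.04), with adjusted p from 7.69e-05 to 0.0105.

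These 4 lower genes are the members that lie on chromosome 11. The shares by chromosome are from the fit of all 18 libraries, in which Fasn alone of these 4 was called. Of 1109 genes tested on that chromosome, 24.7% were lower and 2.71% higher in T-N1G cells under vehicle, with a median log2 difference of -0.22. The other chromosomes had 6.17% lower, 8.96% higher and a median of 0.02. Chromosome 4 stood close to chromosome 11, with 22% of 835 genes lower and a median of -0.19. On chromosomes 6 and 18, 12.9% and 12.3% of genes were lower. The part of the shift on chromosome 11 in the values of Fasn, Acly, Srebf1 and Acaca was not tested.

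With MG132 more members differed between the lines, as did more of all genes tested. At 0.3 µM 8 of 28 genes were lower and 2 higher in T-N1G than in mock cells (23.5% and 25% of all genes tested), and at 1.0 µM 10 were lower and 5 higher (31.3% and 30.7%). Whether the response itself differed was tested as an interaction, the MG132 change in T-N1G cells minus that in mock cells. At 0.3 µM 6 interactions were negative and 1 positive (11% and 14.2% of all genes), and at 1.0 µM 8 were negative and 2 positive (22.1% and 22.9%). The change was the more negative one in T-N1G cells for 22 of 28 genes at 0.3 µM and 21 of 28 at 1.0 µM, beside 6573 and 6749 of 13258 genes tested. Without T-N1G library 2 at 1.0 µM, the library that stood high for 24 of the 28 genes, 15 interactions at 1.0 µM were negative, where 23.8% of all genes in that fit were. Since that library was singled out for its high values of these same genes, its removal moves their interactions downward by construction. Leaving out each of the other libraries in turn gave 7 to 11.

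The widest interaction at 1.0 µM was that of Pmvk, which was 0.66 ± 0.14 at 0.3 µM (adjusted p = 0.00269) and 1.11 ± 0.15 at 1.0 µM (adjusted p = 7.61e-06), and it was called in all 24 alternatives at both doses. Dhcr7 (-0.91 ± 0.16) and Ebp (-0.82 ± 0.17), which act late in sterol synthesis, fell further in T-N1G cells at 1.0 µM, and 11 of the 15 tested sterol enzymes had no call at either dose, with values from -0.67 (Fdft1 at 0.3 µM) to 0.28 (Hsd17b7 at 1.0 µM). Stard4 (-0.75 ± 0.14 and -0.57 ± 0.14) and Elovl6 (-0.87 ± 0.27 and -0.90 ± 0.29) fell further in T-N1G cells at both doses, and so did Scd1 (-0.53 ± 0.18 and -0.68 ± 0.18) and Fads1 (-0.39 ± 0.13 and -0.68 ± 0.13). Insig1 differed at 0.3 µM (-0.77 ± 0.22, adjusted p = 0.0147) and Insig2 at 1.0 µM (-0.65 ± 0.18, adjusted p = 0.00697). Fasn fell further in T-N1G cells at 1.0 µM (-0.51 ± 0.17), and Acaca fell less (0.47 ± 0.12).

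At 0.3 µM only the interactions of Pmvk, Insig1 and Stard4 were called in all 24 alternatives. Those of Cyp51 (-0.64 ± 0.22, adjusted p = 0.0442), Scd1 and Fads1 were lost in 13 of 24 each and that of Elovl6 in 9, most of them fits without 1 library. At 1.0 µM the 10 interactions were called in all 24, apart from Elovl6, which was lost without mock library 3 at that dose (adjusted p = 0.0548).

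**Figure D4:**
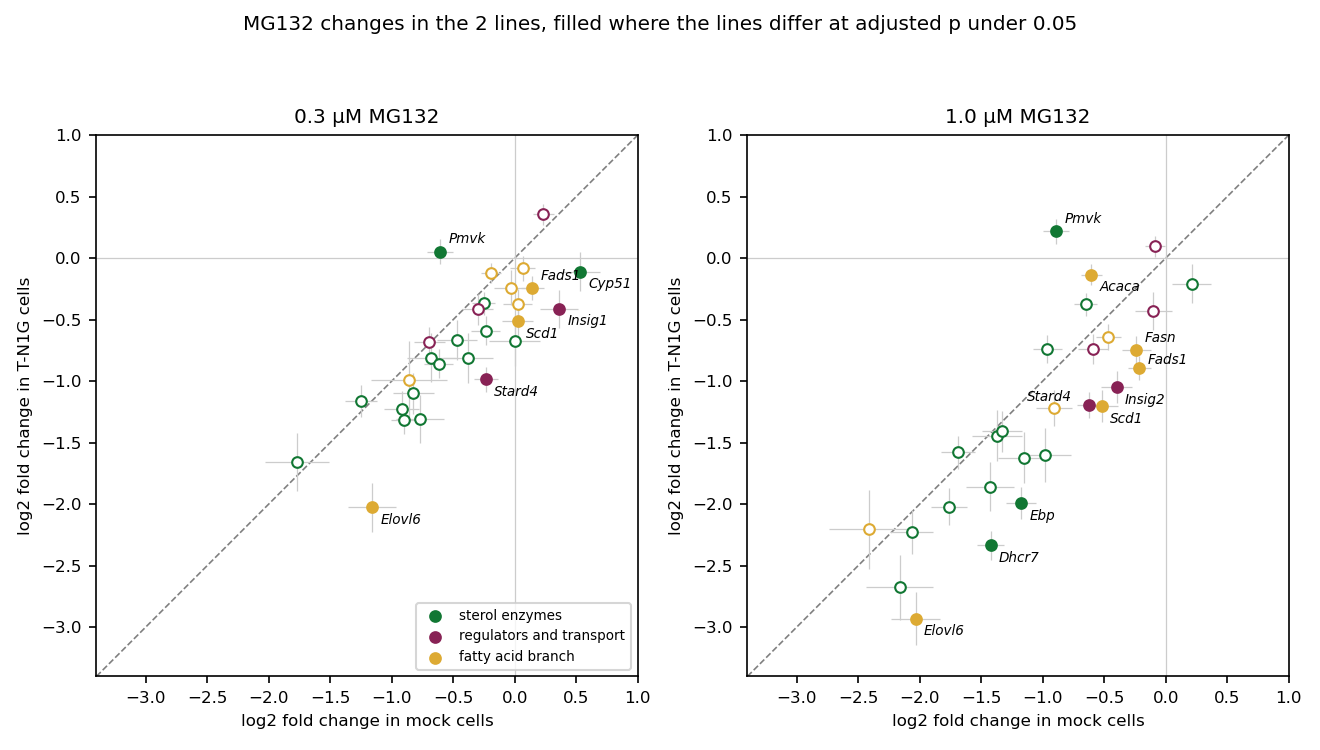
Log2 fold change with MG132 in mock cells (horizontal axis) and T-N1G cells (vertical axis) for the 28 genes, with grey standard error bars and a dashed line where both are equal. Filled and named points have an interaction with adjusted p under 0.05, and at 1.0 µM 8 of them lie below the line and Pmvk and Acaca above it.

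Levels can be compared between genes only per length, so the deposited FPKM values (scaled by gene length and library size) were used for the order. In mock cells under vehicle Scd2 was the most abundant member (334 ± 31.9 FPKM), followed by Fdps (149.9 ± 10.5) and Fads2 (96.2 ± 5.04), whose spreads did not overlap. Acly (81.1 ± 2.16) and Idi1 (77.8 ± 4.96) did not differ beyond their spread, nor did Insig1 (64.9 ± 8.30), Fads1 (64.1 ± 2.45), Cyp51 (63.1 ± 5.40) and Scd1 (62 ± 4.17). Srebf2 (59.1 ± 4.37) stood above Srebf1 (18 ± 0.24), and Insig1 above Insig2 (11.1 ± 0.83). Tm7sf2 was the lowest of the expressed members (2.75 ± 0.53 FPKM). At 1.0 µM the order changed at the top, where Cyp51 (76.8 ± 13.6), Fdps (71 ± 12) and Scd2 (66 ± 22.2) overlapped in mock cells, and Scd2 (73.3 ± 36.4), Cyp51 (60.5 ± 15.6) and Fdps (58.9 ± 23.7) did in T-N1G cells. In T-N1G cells Pmvk went from the 16th level of 28 under vehicle (33.1 ± 2.51 FPKM) to the 7th at 1.0 µM (39.8 ± 5.60), where it lay within the spread of its neighbours Acly (45.7 ± 7.77) and Fads1 (38.3 ± 6.68).

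Other genes of the same pathways, from a list of 34 that holds none of the 29, moved in both directions. Of 30 tested, 11 fell and 8 rose in mock cells at 0.3 µM (28.1% and 25% of all genes), 13 fell and 10 rose at 1.0 µM (37.4% and 32.4%), 13 fell and 8 rose at 0.3 µM in T-N1G cells (30.3% and 29.1%), and 16 fell and 9 rose at 1.0 µM (38.9% and 37.5%). In mock cells these counts were close to the shares of all genes. All 3 genes of SREBP processing, Scap, Mbtps1 and Mbtps2, fell in all 4 comparisons, with Scap at -0.74 ± 0.09 at 1.0 µM in mock and -1.43 ± 0.09 in T-N1G cells. Acss2, which makes acetyl-CoA from acetate, fell by 1.53 ± 0.15 and 1.66 ± 0.15 on the log2 scale at 1.0 µM in mock and T-N1G cells. Soat1, which esterifies cholesterol for storage, rose by 1.10 ± 0.11 and 1.59 ± 0.11, and of the 10 tested genes of sterol uptake, storage and export 3 rose and 3 fell at 1.0 µM in mock cells and 4 rose and 4 fell in T-N1G cells.

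Some values carry uncertainty from shared sequence. In the RefSeq annotation Tm7sf2 overlaps Vps51, Fdft1 overlaps Ctsb, Acaca overlaps Tada2a and Srebf1 overlaps Rai1, and the sources used here do not give the strand setting of the counting, so reads of such neighbours may be mixed.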

How the data were processed

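Polyadenylated RNA of 18 libraries (6 groups of 3) was sequenced after a strand-specific library kit, per the labels' protocols. The build was mm9 and the tools were Cuffdiff 2.1.1, TopHat2 2.0.8b and bcl2fastq 2.16.0.10, per the submitters' processing notes. Annotation, filters and the strand setting of the counting were not given in the sources used here. Per the file headers, the authors' table holds, for each gene in each library, an estimated count of fragments and the deposited FPKM after Cuffdiff's scaling. Of the estimated counts 98.16% to 98.51% per library were whole (tolerance 1e-06), and all were rounded. In the files, libraries are numbered from 0 and conditions abbreviated, and their link to the sample titles was read from those names. Left out were 2 genes not processed by Cuffdiff in every library. No 2 libraries of a group agreed within counting noise (chi-square per degree of freedom of 2.82 or more). Reads have no molecular identifiers, and the source of the spread beyond counting noise was not tested.

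The counts were tested with edgeR 4.0.16 (R 4.3.3; quasi-likelihood F test, TMM, default expression filter, robust dispersion) in 1 fit of 6 group means and 11 contrasts, adjusted by Benjamini-Hochberg over 13258 genes, with calls at an adjusted p under 0.05. The SE is the log2 change over the square root of F. All groups share one estimate of spread, so the libraries at 1.0 µM, with their wider spread, also set the errors of the vehicle comparison. Alternatives were DESeq2 1.42.0, RLE or library size scaling, no filter, only the groups compared, a replicate block and each library left out. The script was tested on simulated data. Members and gene lists were chosen with earlier results of these data known. Per-library values are given for the 3 genes of each role with the largest called change at 1.0 µM, the 2 largest called interactions at each dose, the 2 largest called differences under vehicle, and Srebf1, Srebf2, Insig1 and Insig2. Cyp51, Idi1, Fdps, Fdft1 and Scd1 were added after their values were seen. Promoters are those of RefSeq (GRCm38.p6). Of the other pathway genes, those named are the SREBP processing genes and the gene of largest called change at 1.0 µM in each further sublist, of which 1 is not reported here.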

Additional observations from a re-analysis of the deposited data

Results flagged for a closer look

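The MG132 response differed between T-N1G and mock cells, by an interaction test past the threshold, in 17 gene and dose pairs (log2, T-N1G minus mock). Of the 28 genes, 6 were negative and 1 positive at 0.3 µM, beside 11% and 14.2% of all genes tested. At 1.0 µM 8 were negative and 2 positive, beside 22.1% and 22.9%. With negative and positive calls added, the 28 genes were not called more often than all genes. By direction, their negative calls were more frequent than those of all genes at each dose, and their positive calls less frequent. These differences in share were not tested. At 0.3 µM the positive value was that of Pmvk (0.657), and the negative ones were those of Elovl6 (-0.868), Insig1 (-0.771), Stard4 (-0.753), Cyp51 (-0.641), Scd1 (-0.534) and Fads1 (-0.387). At 1.0 µM the positive values were those of Pmvk (1.109) and Acaca (0.47). The negative ones at 1.0 µM were those of Dhcr7 (-0.912), Elovl6 (-0.899), Ebp (-0.816), Scd1 (-0.684), Fads1 (-0.68), Insig2 (-0.652), Stard4 (-0.57) and Fasn (-0.51). Pmvk and Stard4 differed at both doses in all 24 alternatives. Among the sterol enzymes Pmvk was the single gene whose value was positive and past the threshold, and among the fatty acid enzymes that gene was Acaca.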

How the results depend on the processing

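Of 176 called gene and comparison pairs none changed direction in the 24 alternatives and 130 stayed called in all of them. Depth limited the values of Tm7sf2 most, and the wider spread at 1.0 µM limits what 3 libraries can show. Counts of genes that moved by over 1.5 times are given here. Scaling by library size alone, which shifted the median of all genes in T-N1G cells at 1.0 µM from -0.006 to -0.148, gave 1 gene higher (main 2) at 0.3 µM in mock cells, 0 lower (main 1) in T-N1G cells under vehicle, and 3 negative interactions (main 6) at 0.3 µM. With no expression filter there were 2 such interactions. DESeq2 and RLE scaling each gave 1 gene higher (main 0) at 1.0 µM in T-N1G cells (Pmvk) and 1 higher (main 0) from 0.3 to 1.0 µM in mock cells (Insig2). Fits of only the groups compared gave 4 higher at 0.3 µM in mock cells, 4 lower and 4 higher between lines under vehicle (main 1 and 2), 13 lower and 5 higher at 0.3 µM (main 8 and 2), 2 higher at 1.0 µM (main 5), and 13 negative interactions at 0.3 µM. The cause of these differences was not tested.

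Leaving out each library in turn gave 0 to 3 genes higher at 0.3 µM in mock cells, 0 to 1 higher at 1.0 µM in T-N1G cells, 15 to 25 lower and 0 to 1 higher from 0.3 to 1.0 µM in mock cells, 0 to 1 lower and 0 to 2 higher between lines under vehicle, 1 to 3 higher at 0.3 µM and 2 to 5 at 1.0 µM, and 2 to 9 and 7 to 15 negative interactions at 0.3 and 1.0 µM. The lowest count from 0.3 to 1.0 µM came without mock library 1 at 1.0 µM, and the highest count of interactions at 1.0 µM without T-N1G library 2.

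Library numbers recur across groups, and same-numbered libraries correlated in their deviations from the group means by -0.115 to 0.818. For each of the 18 libraries, the most correlated library of another group bore the same number. The main fit did not take the numbers as pairs, so an effect shared by same-numbered libraries stays in its spread. With the replicate number as a block, 25 genes fell at 1.0 µM in mock cells (main 23), 24 fell and 1 rose in T-N1G cells (main 24 and 0), and 12 were lower in T-N1G cells at 0.3 µM (main 8). It lost none of the 176 calls and added 23.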

Other observations

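A few further lipid genes from the list of other pathway genes stood out after their values were seen. Of the 30 tested genes of that list, 3 were higher and 3 lower in T-N1G than in mock cells under vehicle, beside 8.43% and 7.72% of all genes tested. Me1, malic enzyme, which supplies NADPH for lipid synthesis, stood higher under vehicle with T-N1G than in mock cells (174 ± 6.21 against 46.6 ± 2.22 CPM, log2 1.90 ± 0.12, adjusted p = 6.69e-09) and rose at 1.0 µM in both lines (0.53 ± 0.12 in mock and 1.14 ± 0.11 in T-N1G cells). Nr1h2, a liver X receptor gene, rose at 1.0 µM by 0.64 in mock and 1.46 in T-N1G cells on the log2 scale. Elovl5, an elongase of polyunsaturated fatty acids, moved in opposite directions, at 212 ± 1.66 and 298 ± 36.3 CPM under vehicle and 1.0 µM in mock cells (0.49 ± 0.10) and at 226 ± 8.03 and 157 ± 26.6 CPM in T-N1G cells (-0.53 ± 0.10), with an interaction of -1.02 ± 0.14 (adjusted p = 1.66e-05). Acacb, the second acetyl-CoA carboxylase gene, was likewise higher with T-N1G under vehicle (0.70 ± 0.13) and rose with 1.0 µM MG132 in T-N1G cells (1.46 ± 0.12).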
